A study of Mus musculus with 18 samples.

Results

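The suppressive effector molecules of regulatory T cells (Tregs) were examined in splenic Tregs with and without the chromatin remodeler CHD8. The 10 genes were taken by name, from what is known of how Tregs restrain other cells, but with earlier results of these data known. They were Il10, Ebi3, Tgfb1, Lrrc32, Gzmb, Prf1, Fgl2, Entpd1, Nt5e and Areg. All 10 were listed among 35865 genes of the RNA-seq table, and all 10 passed a filter of at least 1 TPM in 2 or more libraries, as did 15240 genes in all. TPM, the deposited unit of abundance, scales the reads of a gene by its length and by the library total, so levels may be compared between genes.

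CD4+ T cells were taken from the spleens of 2 WT and 2 Chd8-/- mice, YFP+ Tregs were sorted from them, and each mouse gave 1 RNA-seq library. In Chd8-/- mice a floxed Chd8 gene is cut by a Cre recombinase that is fused to YFP and expressed from the Foxp3 locus, so deletion is directed to cells that express Foxp3. The labels spell this genotype CHD8Flox/FloxFoxp3YFP-Cre. The labels of the WT libraries give CHD8flox/floxFoxp3YFP-Cre/+, whereas the methods of the study describe WT littermates with an intact Chd8 gene that also carry the Foxp3 YFP-Cre allele. The 2 groups were kept as the titles of the libraries give them. Mice were 5 to 7 weeks old and sex-matched by the methods, and the labels of both groups also name a Poly IC injection. Neither the sort nor the Cre can show how many of the sorted cells had lost Chd8.

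Tregs hold other immune cells in check in several ways. They secrete inhibitory cytokines such as IL-10, TGF-beta and IL-35, they kill or injure target cells with granzymes and perforin, and they break down extracellular ATP to adenosine with the ectoenzymes CD39 and CD73. They also release FGL2, which acts on antigen-presenting cells and T cells, and amphiregulin, a growth factor for tissue repair. In mice, activated or effector Tregs express more of several of these molecules than resting Tregs do.

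The effector molecules did not all differ in the same direction without CHD8. Ebi3 was 4.15 times, Fgl2 2.07 times and Areg 2.06 times as high on average in Chd8-/- as in WT Tregs. Lrrc32 and Entpd1 were also higher in both Chd8-/- mice, and Gzmb was 4.27 times lower. The scarce Prf1 was higher too, but it passed the filter through the Chd8-/- libraries alone. Of all genes tested, 14.8% had both Chd8-/- mice above both WT mice, and 27.8% had both below. Nt5e and Tgfb1 differed by less than their standard errors, and Il10 differed more between the WT mice than between the genotypes. No gene of the 15240 tested passed an adjusted p-value of 0.05 in limma (two-sided, Benjamini-Hochberg adjustment), so every one of these differences is given as a value with its error and not as a called change. The smallest adjusted p-value over all genes was 0.0807, and 1555 genes had an unadjusted p-value under 0.05. With 2 against 2 mice an exact permutation test cannot give a p-value below 0.333.

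The promoters of Ebi3, Fgl2, Areg and Gzmb are shown first, since promoters are the stretches at which transcription starts. Among the members with a promoter entry, only these held a searched motif in the 80 bases before the start. Prf1 and Il10 had log2 fold changes of larger size than Fgl2 and Areg. The Prf1 entry held no match in these bases, and Il10 had no entry. Each sequence holds the 80 bases before the start of the gene in RefSeq on GRCm38.p6, written 5' to 3' on the strand of the gene. Capitals mark matches to the motifs searched on both strands: TGACGTCA (cAMP response element), TGAGTCA (AP-1), GGGNNTTNC (kappaB-like) and TTCNNNGAA (GAS, the element read by STAT factors). They also mark the RUNX motif TGTGGT. The TATA motif searched was TATAAA.
Ebi3 promoter, chr17:55952543-55952622, plus strand: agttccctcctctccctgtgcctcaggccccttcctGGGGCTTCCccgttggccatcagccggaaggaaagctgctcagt
Fgl2 promoter, chr5:21372593-21372672, plus strand: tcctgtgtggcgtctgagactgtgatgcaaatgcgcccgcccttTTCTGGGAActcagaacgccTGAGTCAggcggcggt
Areg promoter, chr5:91139519-91139598, plus strand: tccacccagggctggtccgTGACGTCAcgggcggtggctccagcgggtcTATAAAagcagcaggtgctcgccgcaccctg
Gzmb promoter, chr14:56262335-56262414, minus strand: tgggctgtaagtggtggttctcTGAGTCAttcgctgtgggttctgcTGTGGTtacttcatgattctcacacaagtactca

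The Areg promoter held the cAMP response element from base 61 to base 54 before the start and a TATA motif from base 31 to base 26. The Fgl2 promoter held a GAS motif at bases 36 to 28 and an AP-1 motif at bases 16 to 10. The Gzmb promoter, of the member that was lower, held an AP-1 motif as well, at bases 58 to 52, and a RUNX motif at bases 34 to 29. The Ebi3 promoter held a kappaB-like motif at bases 44 to 36. Over the 250 bases before the start, 1.55% of 32851 promoters held the cAMP response element, 4.46% AP-1, 13% the kappaB-like letters, 7.02% GAS, 14% RUNX and 12.4% TATA. The AP-1 letters were thus shared by a member that was higher and a member that was lower. Of the 10 members 8 had a promoter in the table used. Outside the stretches shown, the RUNX letters also lay at bases 93 to 88 in Gzmb and at bases 130 to 125 in Prf1, whose entry counts from a start inside the gene as given below, no matches overlapped, and no further match lay in the 250 bases of these 8 genes. These matches describe letters, not binding.

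Depth was estimated from the step between the deposited TPM values of short genes, of which 98.3% to 99.4% were whole multiples of that step within 0.15 read. It came to between 9240725 and 13195074 reads in genes per library, highest in Chd8-/- replicate 1. These totals cover genes with a matched exon length, which held 80.2% (Chd8-/- replicate 2) to 86.1% (Chd8-/- replicate 1) of the TPM. Chd8 itself was 24.7 and 27.6 TPM in the WT libraries and 14.9 and 11.4 TPM in the Chd8-/- libraries, a log2 fold change of -0.95 ± 0.29 (SE, n = 2 mice per group, limma adjusted p = 0.455). The Chd8-/- libraries were thus lower as their labels say, with a mean at 0.503 of the WT mean over the whole gene. That level counts reads on exons outside the deleted part and reads of any cells that kept Chd8. Their parts were not tested. The Treg markers Foxp3 (202.8 to 232.1 TPM), Il2ra (860.5 to 1156.3 TPM) and Cd4 (323.6 to 431.8 TPM) were high in all 4 libraries. Of 10 T cell and Treg markers tested, 5 overlapped between the genotypes. In 2, Ctla4 and Tnfrsf18, both Chd8-/- mice were above both WT mice, against 14.8% of all genes. In 3, Cd3e, Cd4 and Ikzf4, both were below, against 27.8%. Xist was 500.2 to 843.3 TPM and Ddx3y, Uty, Eif2s3y and Kdm5d, of the Y chromosome, were listed at 0 in all 4 libraries, although the study describes its RNA-seq mice as a male and a female per genotype.

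The libraries differed in genes of other cells, and the difference ran through the Chd8-/- pair. The 8 erythroid and platelet markers summed to 385.2 and 351.9 TPM in the WT libraries, 9 TPM in Chd8-/- replicate 1 and 1990 TPM in Chd8-/- replicate 2. The 15 myeloid and dendritic markers summed to 509 and 582.4 TPM in WT, 260 TPM in Chd8-/- replicate 1 and 1993 TPM in Chd8-/- replicate 2, in which Lyz2 alone was 1360.3 TPM. The 8 B and plasma cell markers summed to 45.7 to 306.3 TPM and the 8 CD8 and NK cell markers to 13.7 to 44.4 TPM, again lowest in Chd8-/- replicate 1 and highest in replicate 2. The 5 mast cell and basophil markers summed to 0.2 to 3.5 TPM, and Mcpt8 was at 0 throughout. Chd8-/- replicate 1 had therefore the lowest sums of erythroid, myeloid, B and CD8 or NK cell markers of all 4 libraries, and member values are given in each library below.

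**Figure D1:**
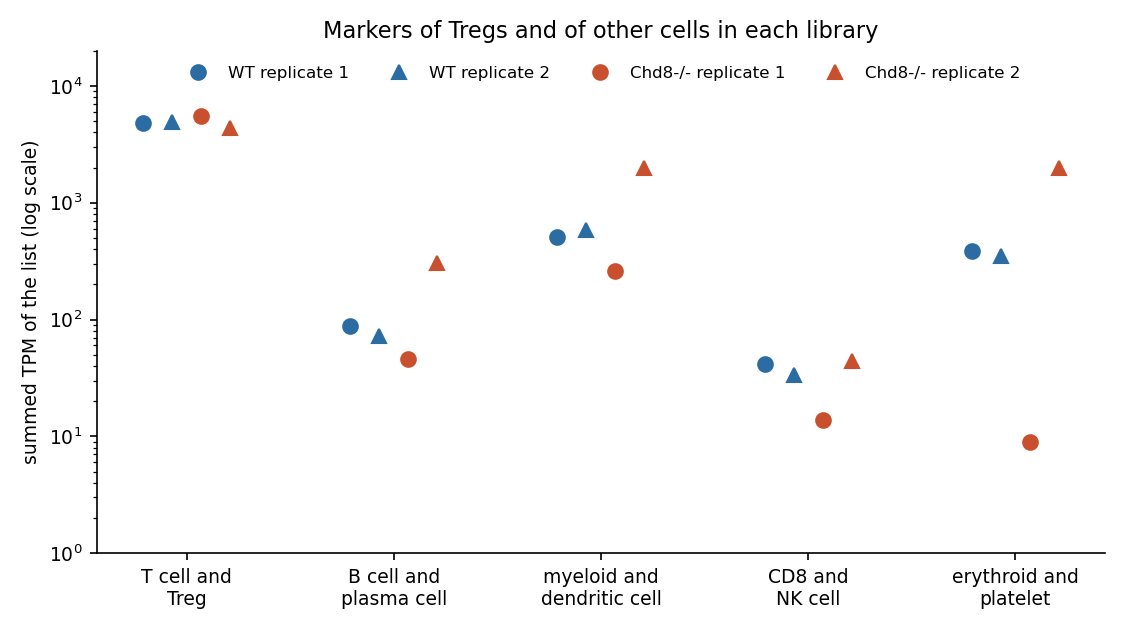
Summed TPM (log axis) of markers of Tregs and of other cells in each of the 4 libraries, with WT in blue and Chd8-/- in red, replicate 1 as circles and replicate 2 as triangles. The sums of the Treg markers lie close together, whereas those of erythroid markers run from 9 TPM in Chd8-/- replicate 1 to 1990 TPM in Chd8-/- replicate 2.

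Among the inhibitory cytokines, Ebi3 stood out. It encodes the beta chain that IL-35 and IL-27 share, and the gene lies on chromosome 17 at 55952623 to 55957022 (GRCm38, plus strand, 5 exons). Ebi3 was 29.3 and 46.8 TPM in the WT mice and 143.6 and 172.3 TPM in the Chd8-/- mice. Both Chd8-/- mice lay far above both WT mice, with no overlap. The log2 fold change was 2.06 ± 0.30 (SE, n = 2 per group), on the scale of log2(TPM + 1) used throughout, with a 95% interval from 1.24 to 2.87 (limma adjusted p = 0.374). The value stayed between 1.73 and 2.38 when any library was left out. Ebi3, which myeloid and B cells can also express, was 143.6 TPM in Chd8-/- replicate 1, with myeloid markers at 260 TPM and B cell markers at 45.7 TPM, and 172.3 TPM in replicate 2, with these at 1993 and 306.3 TPM. The part of other cells in this difference was not tested. About 167 to 1134 reads lay behind each value, so counting error was small.

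Of the 1171 exon bases of Ebi3, 270 overlap Gm16712 and 49 overlap Zfp119b, both on the other strand. Gm16712 was 27.3 and 35.3 TPM in WT and 101.6 and 116.8 TPM in Chd8-/- Tregs, side by side with Ebi3. Zfp119b was 4.4 and 4.6 TPM in WT and 9.5 and 7.0 TPM in Chd8-/- Tregs. Whether the counting used the strand is not given in the sources used here, so reads of Ebi3 and of Gm16712 cannot be told apart over that stretch.

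The partner chain that IL-35 needs was at the limit of detection. Il12a, which encodes the p35 chain, was listed at 0 in 3 libraries and at 0.1 TPM in WT replicate 2, and it did not pass the filter. These libraries therefore held message for the beta chain, from 29.3 TPM in WT replicate 1 to 172.3 TPM in Chd8-/- replicate 2, and almost none for p35. On the receiving side, Il6st (gp130, a signalling chain for IL-6, IL-27 and IL-35) was 265.2 and 325.9 TPM in WT and 167.8 and 158.5 TPM in Chd8-/- Tregs (log2 fold change -0.85 ± 0.19). Il27ra, the receptor chain particular to IL-27, was 130.4 and 146.0 TPM in WT and 108.1 and 76.8 TPM in Chd8-/- Tregs. Il12rb1, a chain of the IL-12 and IL-23 receptors, was 8.8 and 6.9 TPM in WT and 11.0 and 22.9 TPM in Chd8-/- Tregs. Of the 9 partner and receptor genes 6 were tested, 1 higher and 5 lower, none past a log2 fold change of 1 in either direction, with a median of -0.27.

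Il10 encodes the inhibitory cytokine IL-10 (chromosome 1, 131019845 to 131024970, plus strand, 5 exons). Il10 was 2.8 and 19.4 TPM in the WT mice and 3.8 and 1.7 TPM in the Chd8-/- mice. A single WT mouse was high, the other 3 mice lay between 1.7 and 3.8 TPM, and the genotypes overlapped. The log2 fold change was -1.29 ± 0.94 (limma adjusted p = 0.681), and it was -0.08 without WT replicate 2 and -2.50 without WT replicate 1, so that 1 WT mouse decides its size. These values rest on 12 to 131 reads per library.

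Of the messages for TGF-beta1 and for the protein that displays it, only the latter separated the genotypes. Whether the messages differed from each other in their change was not tested. Tgfb1, which encodes latent TGF-beta1, was 120.2 and 151.3 TPM in WT and 143.7 and 166.0 TPM in Chd8-/- Tregs (chromosome 7, 25687002 to 25705077, plus strand, 7 exons). The genotypes overlapped, with a log2 fold change of 0.19 ± 0.21 and a 95% interval from -0.38 to 0.77 (limma adjusted p = 0.781). Lrrc32 encodes GARP, which anchors latent TGF-beta1 on the surface of Tregs. It was 116.8 and 117.1 TPM in WT and 179.6 and 169.7 TPM in Chd8-/- Tregs (chromosome 7, 98489305 to 98501831, plus strand, 5 exons). Lrrc32 was thus higher in both Chd8-/- mice, 1.49 times on average, with little spread within either genotype (log2 fold change 0.57 ± 0.17, limma adjusted p = 0.449). The ratio of Lrrc32 to Tgfb1, both in TPM, was 0.972 and 0.774 in WT and 1.25 and 1.02 in Chd8-/- Tregs.

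Of 21 other genes of TGF-beta activation and its receptors 13 were tested, 2 higher and 11 lower, with a median of -0.21. Tgfbr3, the coreceptor betaglycan, was 23.1 and 14.8 TPM in WT and 5.6 and 4.8 TPM in Chd8-/- Tregs (log2 fold change -1.66 ± 0.37, limma adjusted p = 0.409), and it alone lay past a log2 fold change of 1 in either direction. Smad7, an inhibitor of the pathway, was 29.0 and 30.0 TPM in WT and 30.4 and 13.5 TPM in Chd8-/- Tregs. Smad4, the shared signal carrier, was 27.0 and 28.9 TPM in WT and 19.6 and 22.3 TPM in Chd8-/- Tregs.

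Of the cytotoxic pair, Gzmb was lower in both Chd8-/- mice. Prf1 was near the floor in WT, and its direction was set by the filter. Gzmb encodes granzyme B, the protease that starts death in target cells (chromosome 14, 56258836 to 56262334, minus strand, 5 exons). Gzmb was 35.6 and 27.6 TPM in the WT mice and 11.7 and 3.1 TPM in the Chd8-/- mice. Both Chd8-/- mice lay below both WT mice, and they differed from each other more than the WT mice did, with an SD of 1.15 against 0.252 on the log2 scale. For Gzmb the log2 fold change was -2.16 ± 0.63 (limma adjusted p = 0.447), -1.35 without Chd8-/- replicate 2 and -2.98 without Chd8-/- replicate 1. In reads, 479 lay behind the WT values and 144 behind the Chd8-/- values.

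Prf1 encodes perforin, which lets granzymes into the target (chromosome 10, 61297751 to 61304684, plus strand, 3 exons). Prf1 was 0 and 1.0 TPM in WT and 2.7 and 4.7 TPM in Chd8-/- Tregs. It was the lowest member in WT and stayed low in Chd8-/- Tregs, though both Chd8-/- mice lay above both WT mice. About 0 and 14 reads lay behind the WT values and 49 and 66 behind the Chd8-/- values, and 3 reads, the limit that a count of 0 allows, would be 0.231 TPM in WT replicate 1. The log2 fold change of 1.70 ± 0.57 (limma adjusted p = 0.470) depended on the pseudocount and ran from 0.66 at a pseudocount of 5 TPM to 3.47 at 0.1 TPM. Prf1 passed the filter through the Chd8-/- libraries, since in WT only 1 library reached 1 TPM.

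Other genes of cytotoxic granules were mixed. Of 17 listed 13 were tested, 9 higher and 4 lower, with a median of 0.12. Serpinb6b, a serpin of the granzyme inhibitor family, was 12.7 and 12.5 TPM in WT and 33.5 and 23.0 TPM in Chd8-/- Tregs (log2 fold change 1.08 ± 0.31), the only gene of this list past a log2 fold change of 1 in either direction. Srgn, the proteoglycan core of the granule, was 98.9 and 70.8 TPM in WT and 142.5 and 137.4 TPM in Chd8-/- Tregs. Stxbp2, needed for granule release, was 34.4 and 28.2 TPM in WT and 22.6 and 16.5 TPM in Chd8-/- Tregs. Gzma (granzyme A) was 4.4 and 1.3 TPM in WT, 0 in Chd8-/- replicate 1 and 13.6 TPM in replicate 2, so the Chd8-/- mice lay on either side of the WT mice. Granzyme genes resemble each other in sequence, and how reads shared between them were counted is not given in the sources used here.

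Fgl2 encodes a secreted fibrinogen-like protein that inhibits dendritic cells and T cells (chromosome 5, 21372673 to 21378386, plus strand, 2 exons). Fgl2 was 23.6 and 26.1 TPM in WT and 52.3 and 50.8 TPM in Chd8-/- Tregs. The means differed 2.07 times, and within each genotype the mice nearly coincided, at an SD of 0.0987 in WT and 0.0291 in Chd8-/- on the log2 scale. Fgl2 thus had a log2 fold change of 1.03 ± 0.22 (limma adjusted p = 0.403) and stayed between 0.96 and 1.09 with any library left out. Myeloid cells also express Fgl2, and the myeloid markers summed to 509 and 582.4 TPM in WT and 260 and 1993 TPM in Chd8-/- libraries. Their part in the level of Fgl2 was not tested.

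**Figure D2:**
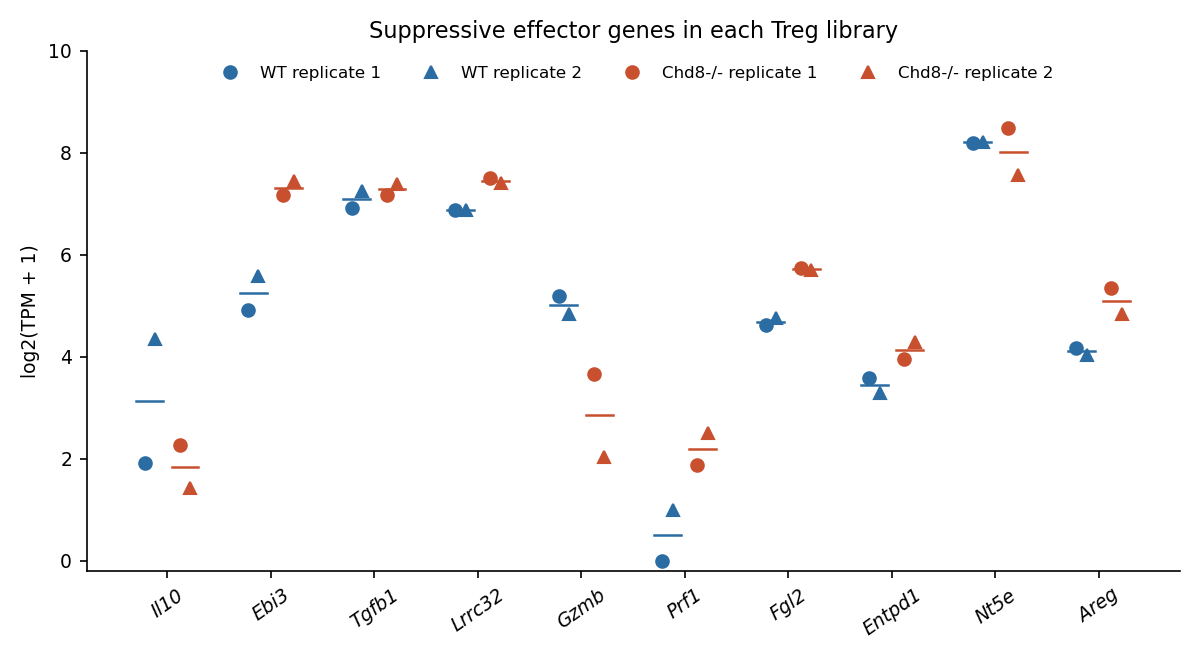
Level of each suppressive effector gene as log2(TPM + 1) in each library, with WT in blue and Chd8-/- in red, replicate 1 as circles, replicate 2 as triangles and a bar at the mean of the 2 mice. Chd8-/- lies above WT in both mice for Ebi3, Lrrc32, Prf1, Fgl2, Entpd1 and Areg and below it for Gzmb, and WT replicate 2 stands alone for Il10.

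The ectoenzymes of the adenosine pathway stood at very different levels. Nt5e encodes CD73, which turns AMP into adenosine, and it was the highest member in both genotypes (chromosome 9, 88327609 to 88372089, plus strand, 9 exons). Nt5e was 292.5 and 296.2 TPM in WT and 357.6 and 187.7 TPM in Chd8-/- Tregs. The Chd8-/- mice lay on either side of the WT mice. Its log2 fold change of -0.18 ± 0.35 had a 95% interval from -1.12 to 0.76 (limma adjusted p = 0.877), and its sign turned to 0.28 without Chd8-/- replicate 2. Entpd1 encodes CD39, which acts before it by turning ATP and ADP into AMP (chromosome 19, 40612366 to 40741602, plus strand, 13 exons). Entpd1 was 11.0 and 8.8 TPM in WT and 14.6 and 18.6 TPM in Chd8-/- Tregs, higher in both Chd8-/- mice (log2 fold change 0.69 ± 0.32, limma adjusted p = 0.556). Its highest value was in Chd8-/- replicate 2, with myeloid markers at 1993 TPM and B cell markers at 306.3 TPM. In replicate 1 these were at 260 and 45.7 TPM. The part of other cells in the level of Entpd1 was not tested. Nt5e message exceeded Entpd1 message 26.6 and 33.7 times in WT and 24.5 and 10.1 times in Chd8-/- Tregs, in TPM.

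Of 21 other genes that make, move, sense or remove adenosine and related purines 15 were tested, 7 higher and 8 lower, with a median of -0.18. Adk, the kinase that removes adenosine inside the cell, was 27.0 and 22.5 TPM in WT and 5.8 and 8.4 TPM in Chd8-/- Tregs (log2 fold change -1.68 ± 0.34, limma adjusted p = 0.403). Cd38, an ectoenzyme that consumes NAD, was 132.6 and 121.5 TPM in WT and 76.1 and 87.1 TPM in Chd8-/- Tregs. Adora2a, an adenosine receptor of T cells, was 3.7 and 5.4 TPM in WT and 10.0 and 6.5 TPM in Chd8-/- Tregs. These 3 genes separated the genotypes without overlap, Adk and Cd38 lower and Adora2a higher in Chd8-/-. Of the 15 tested, 3 had both Chd8-/- mice above both WT mice, against 14.8% of all genes. In 4 both were below, against 27.8%, and 8 overlapped.

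Areg, the ligand of the EGF receptor by which Tregs promote tissue repair, was 17.1 and 15.5 TPM in WT and 39.6 and 27.5 TPM in Chd8-/- Tregs (chromosome 5, 91139599 to 91148432, plus strand, 6 exons). Both Chd8-/- mice were higher, 2.06 times on average, and Chd8-/- replicate 1 more so than replicate 2. For Areg the log2 fold change was 0.98 ± 0.30 (limma adjusted p = 0.455), on 97 to 325 reads per library. Of 14 other genes for EGF ligands, their shedding and tissue-repair Tregs 8 were tested, 3 higher and 5 lower, with a median of -0.24. Klrg1, a receptor found on effector and tissue Tregs, was lower, at 101.5 and 82.0 TPM in WT and 42.4 and 53.5 TPM in Chd8-/- Tregs (log2 fold change -0.92 ± 0.24). Il1rl1, the IL-33 receptor, was 4.8 and 4.0 TPM in WT and 4.4 and 13.7 TPM in Chd8-/- Tregs, overlapping. Adam10, a sheddase of surface proteins, was 62.6 and 77.6 TPM in WT and 92.0 and 87.6 TPM in Chd8-/- Tregs.

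As a list, 7 of the 10 members were higher and 3 lower without CHD8, and their median log2 fold change was 0.63, beside -0.15 over all 15240 genes tested. Prf1 passed the filter through the Chd8-/- libraries alone and so had to be higher there. It was left out of the counts that follow, which cover the 9 members at 1 TPM or more in both WT libraries, 6 higher and 3 lower, with a median of 0.57. The shares of all genes beside these counts cover the 15240 genes under the looser filter of at least 1 TPM in any 2 libraries. The members were chosen with earlier results of these data known, so the comparison carries no test. In 5 of these 9 both Chd8-/- mice were above both WT mice, against 14.8% of all genes. In 1 of 9, Gzmb, they were below, against 27.8% of all genes. In 2 of 9 the log2 fold change reached 1 or more (Ebi3 and Fgl2), against 5.12% of all genes, and in 2 of 9 it was -1 or less (Gzmb and Il10), against 11.6%. An unadjusted p-value under 0.05 was seen in 4 of 9 that were higher, against 3.9% of all genes, and in 1 of 9 that was lower, against 6.3%. No member passed the adjusted p-value of 0.05, the share of all genes that did being 0%, and the adjusted p-values of the members ran from 0.374 to 0.877. More genes were lower than higher in this comparison, 1768 against 781 past the fold, and quantile normalization, which moved the median of all genes to 0.00, evened this to 1231 against 1146. With all log2 fold changes set relative to the median of all genes, the numbers were 1376 against 1056 and the median of the 10 members was 0.78.

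**Figure D3:**
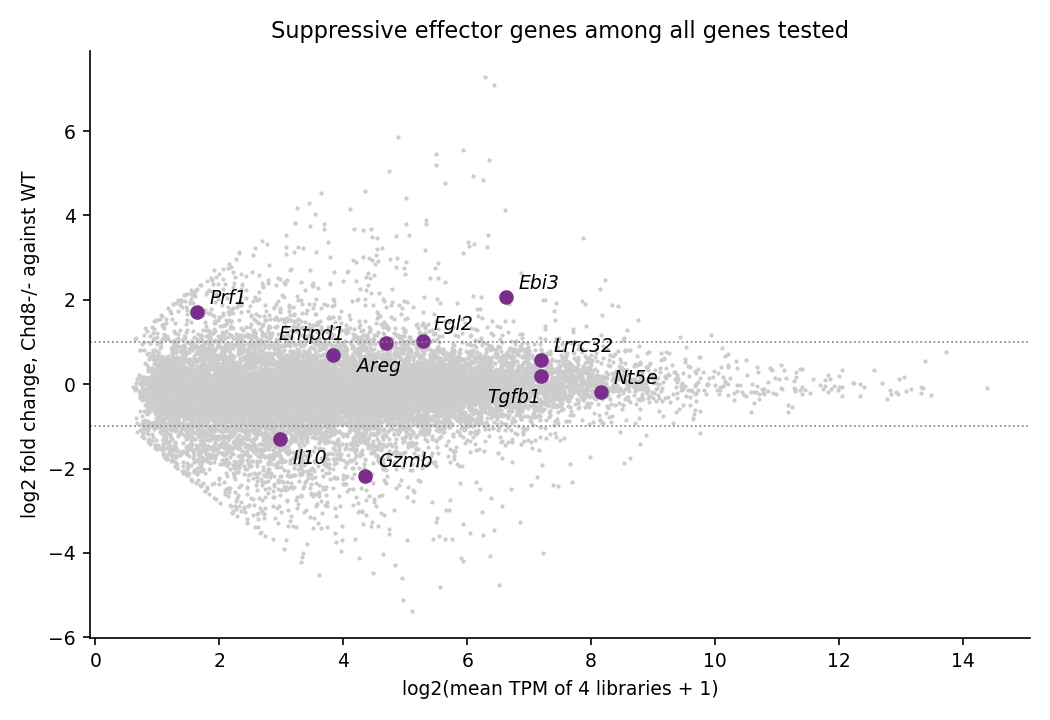
Log2 fold change of TPM + 1, Chd8-/- against WT, by log2(mean TPM of the 4 libraries + 1), with the 15240 genes tested in grey, the 10 suppressive effector genes in purple and dotted lines at a log2 fold change of 1 and -1. Ebi3, Prf1 and Fgl2 lie above the upper line, and Gzmb and Il10 below the lower line.

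The median log2 fold change of the 10 members, Prf1 included, was 0.57 without Chd8-/- replicate 2 and 0.63 without replicate 1. The median of all genes tested was -0.04 without Chd8-/- replicate 2 and -0.25 without replicate 1. A lower level of a message in sorted cells may mean fewer cells that carry it or less message per cell, which bulk RNA-seq cannot tell apart.

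**Figure D4:**
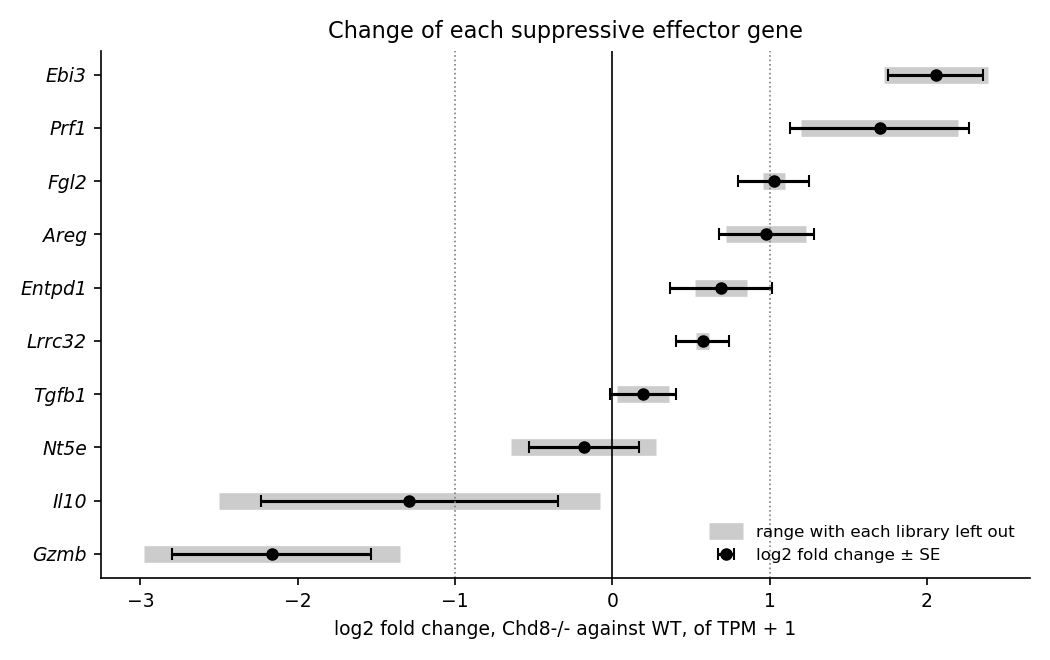
Log2 fold change of TPM + 1, Chd8-/- against WT, for each suppressive effector gene (black point), with its SE from limma (black bar, n = 2 mice per group) and the range when each library in turn is left out (grey band), and dotted lines at 1 and -1. The grey band of Nt5e crosses 0, that of Il10 ends just below 0 and that of Tgfb1 begins just above 0. The bands of the other members stay on a single side of 0.

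The order of the members by level changed along with this. In WT the means ran from Nt5e (294.4 TPM) over Tgfb1 (135.8), Lrrc32 (116.9), Ebi3 (38.0), Gzmb (31.6), Fgl2 (24.9), Areg (16.3), Il10 (11.1) and Entpd1 (9.9) down to Prf1 (0.5 TPM). In that order Ebi3 and Gzmb overlapped, as did Areg and Il10, and Il10 and Entpd1. In Chd8-/- the order was Nt5e (272.6 TPM), Lrrc32 (174.6), Ebi3 (157.9), Tgfb1 (154.8), Fgl2 (51.5), Areg (33.5), Entpd1 (16.6), Gzmb (7.4), Prf1 (3.7) and Il10 (2.75 TPM). There Lrrc32, Ebi3 and Tgfb1 overlapped in turn, as did Gzmb, Prf1 and Il10. Ebi3 thus stood level with the TGF-beta genes in Chd8-/- but not in WT Tregs. Gzmb was 4.33 times Prf1 in Chd8-/- replicate 1, 0.66 times in replicate 2 and 27.6 times in WT replicate 2. The 10 genes together summed to 648.9 and 709.8 TPM in WT and 949.2 and 802.1 TPM in Chd8-/- Tregs.

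Among 15 regulators of effector Treg genes, 8 were higher and 7 lower. In 8 both Chd8-/- mice lay above both WT mice, against 14.8% of all genes. In 5 both lay below, against 27.8%. The list was written with earlier results of these data known, so its shares describe it and carry no test. Batf, an AP-1 factor of effector Tregs, was 231.1 and 207.1 TPM in WT and 502.4 and 784.6 TPM in Chd8-/- Tregs (log2 fold change 1.52 ± 0.27, limma adjusted p = 0.402). Prdm1 (Blimp-1), which marks IL-10-producing effector Tregs, was 5.3 and 6.6 TPM in WT and 11.4 and 17.6 TPM in Chd8-/- Tregs. Maf, another factor tied to Il10, was 247.9 and 204.0 TPM in WT and 195.3 and 148.0 TPM in Chd8-/- Tregs. Bach2, a repressor that keeps Tregs resting, was 19.2 and 24.6 TPM in WT and 7.0 and 8.1 TPM in Chd8-/- Tregs (log2 fold change -1.41 ± 0.32). Tbx21 (T-bet) was 12.9 and 5.0 TPM in WT and 2.7 and 1.9 TPM in Chd8-/- Tregs. Batf, Prdm1 and Ahr, a receptor for aryl hydrocarbons, were the 3 genes of this list at 1 or more, and Bach2 and Tbx21 the 2 at -1 or less. Ahr, named for that count after its values were seen, was 17.4 and 13.5 TPM in WT and 45.2 and 24.7 TPM in Chd8-/- Tregs.

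Other suppressive molecules of Tregs were mostly higher as well. Of 15 tested 12 were higher and 3 lower, with a median of 0.46. In 9 both Chd8-/- mice were above both WT mice, against 14.8% of all genes. In 0 both were below, against 27.8%. This list too was written with earlier results of these data known, so its shares describe it and carry no test. Penk, which encodes the opioid precursor proenkephalin, was 100.8 and 80.5 TPM in WT and 442.5 and 571.9 TPM in Chd8-/- Tregs (log2 fold change 2.47 ± 0.23, limma adjusted p = 0.374). Havcr2 (TIM-3), an inhibitory receptor, was 5.9 and 6.7 TPM in WT and 38.7 and 73.8 TPM in Chd8-/- Tregs (log2 fold change 2.90 ± 0.41, limma adjusted p = 0.374). Il1r2, the decoy receptor for IL-1, was 8.1 and 9.1 TPM in WT and 26.2 and 19.7 TPM in Chd8-/- Tregs. Icos, a costimulatory receptor named after its values were seen, was the other gene of this list at 1 or more, at 110.0 and 110.3 TPM in WT and 254.0 and 212.5 TPM in Chd8-/- Tregs. Myeloid cells also express Havcr2, and of the Chd8-/- mice it was higher in replicate 2, where the myeloid markers summed to 1993 TPM, than in replicate 1, where they summed to 260 TPM. Their part in the difference from WT was not tested.

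The genes whose pattern over the 4 libraries was nearest to that of Ebi3 and Gzmb were found among 11300 genes with a mean of at least 5 TPM, by Euclidean distance of log2(TPM + 1) centred on each gene's mean. Nearest to Ebi3 were Nynrin (distance 0.195), at 2.0 and 3.5 TPM in WT and 11.9 and 13.3 TPM in Chd8-/- Tregs, Csf1 (0.258) and Ell2 (0.31). Csf1, the growth factor of macrophages, was 12.0 and 16.3 TPM in WT and 51.4 and 74.7 TPM in Chd8-/- Tregs. Ell2, a transcription elongation factor, was 11.7 and 23.6 TPM in WT and 57.5 and 86.4 TPM in Chd8-/- Tregs. Nearest to Gzmb were Gm30492 (distance 0.102), Osgin1 (0.102) and Klf9 (0.141). Klf9, a transcription factor induced by glucocorticoids, was 19.9 and 13.3 TPM in WT and 6.0 and 1.2 TPM in Chd8-/- Tregs. Over 4 libraries of 2 groups, such nearness describes a shared pattern and carries no test.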

How the data were processed

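RNA-seq values were compared between 2 WT and 2 Chd8-/- mice. The authors trimmed reads, aligned them to mm10 with STAR 2.6.1e, removed duplicates, counted reads on RefSeq genes with featureCounts 1.6.2 (versions from the submitters' processing notes) and deposited TPM rounded to 0.1. The 10 genes and the companion and marker lists were chosen with earlier results of these data known. From 35869 entries, 4 under repeated names were left out. Genes with at least 1 TPM in 2 or more libraries were compared as log2(TPM + 1) by limma 3.58.1 (R 4.3.3; eBayes with a mean-variance trend; Benjamini-Hochberg adjustment), which was tested on simulated data. Adding 1 TPM understates the change of low genes. Reads were estimated from the step of TPM times exon length in GRCm38 and cover counting error only. Named genes are the 10 members, Chd8, up to 3 genes per companion list with the largest absolute log2 fold change at a mean of at least 5 TPM, Il12a, Gzma, Adora2a, Prdm1 and Maf, and the 3 genes nearest to the member with the largest and the smallest log2 fold change. Markers, overlapping genes and genes of the sex chromosomes were named as checks. Same-numbered libraries did not deviate together (correlation over genes -0.01). Alternatives were pseudocounts of 0.1 and 5 TPM, other filters, quantile normalization, values relative to the median gene, a replicate block, eBayes without trend and each library left out. ATAC-seq and CHIP-seq peaks are given as TPM in mm39 by the authors, a build whose annotation was not used here, and were not tied to the genes. Python 3.11.15 and matplotlib 3.10.9 were used.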

Additional observations from a re-analysis of the deposited data

How the results depend on the processing

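All 10 genes kept the direction of their log2 fold change under the alternatives in which they were tested, except Nt5e, which ran from -0.65 without Chd8-/- replicate 1 to 0.28 without replicate 2, and no member passed the adjusted p-value of 0.05 in limma under any of them. With each library left out, a lone library was assumed to vary like the other genotype. At a pseudocount of 5 TPM, 1 member was at a log2 fold change of at least 1 and 1 at -1 or less. With each library left out, 1 to 2 members were at -1 or less, Il10 being lost without WT replicate 2 and without Chd8-/- replicate 2, and 3 to 4 were at 1 or more. The number of genes of all past a log2 fold change of 1 in either direction was 2549, 1052 at a pseudocount of 5 TPM, 1690 at a mean of at least 5 TPM, and 2436 to 4478 with each library left out. The number of genes past the adjusted p-value was 0, but 415 without a filter and 2 at a mean of at least 5 TPM, and the cause was not tested. With a replicate block the median of the members was 0.63 and 0 genes passed, at a smallest adjusted p-value of 0.552, and it changed no call. The median of the members, with Prf1 wherever it was tested, ran from 0.55 to 0.78 over all alternatives. The count of members whose genotypes did not overlap was 7 of 10, against 42.6% of all genes. It includes Prf1, which passed the filter through the Chd8-/- libraries alone. Without Prf1, both Chd8-/- mice lay above both WT mice in 5 of 9 members and below in 1. With each library left out, an alternative chosen after seeing the data, the count with Prf1 was 8 to 10. Leaving out can only raise it, and the share of all genes was 64.6% to 80.7%. Prf1 was not tested at a mean of at least 5 TPM. The ATAC-seq alternatives, including the windows around genes, were not run, since the peaks were not tied to the genes. Il10, Prf1 and Gzmb in Chd8-/- rest on the fewest reads, and a difference in them is the least certain.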
